A study of Homo sapiens with 2 samples.

Results

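The zinc finger genes of chromosome 19 described here are the probes of the authors' table whose gene symbol is ZNF followed by a digit and whose own coordinate lies on chromosome 19. They number 210 probes for 164 gene symbols, out of 20291 probes in the table. The samples were HCT116 cells, a human colorectal cancer line, transfected by lipofection with a miR-204-5p mimic or with a negative control, and collected 48 h later. Each condition is 1 single-colour (Cy3) Agilent array of total RNA, so there is no replicate and no test, and every difference below is between 2 arrays. A difference is the log2 intensity on the mimic array minus that on the control array, after each array was scaled to the 75th percentile of its 34127 non-control probes. Intensities are linear, on that common scale, and have no absolute unit; those given for mimic cells and control cells are the values of the 1 array of each.

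Most of these genes encode proteins with a row of C2H2 zinc fingers that read DNA and, in the majority, a KRAB domain that recruits the corepressor TRIM28. TRIM28 brings the histone methyltransferase SETDB1 and HP1 proteins, and the complex silences chromatin, in particular at transposable elements. The genes arose by repeated tandem duplication and lie in clusters along chromosome 19, so paralogues share sequence and a probe may also hybridise to a neighbour's transcript.

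The agent was the mimic of hsa-miR-204-5p. Its mature sequence is shown, from RefSeq (GRCh38.p14, chr9:70810031-70810052, minus strand), with the seed (bases 2 to 8) in capitals.
hsa-miR-204-5p: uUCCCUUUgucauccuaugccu
The sequence of the transfected mimic itself was not used here, and target sites in these genes were not analysed.

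Upstream sequence is shown for 7 genes whose values are given below, because the promoters of some clusters share words. Each line holds the 120 bases before the RefSeq start (GRCh38.p14), in the gene's own direction. Capitals mark CCGGAAG, the core of an ETS-type site, and TCCAATCA, which holds the CCAAT box, on either strand (CTTCCGG and TGATTGGA when reversed).
ZNF254: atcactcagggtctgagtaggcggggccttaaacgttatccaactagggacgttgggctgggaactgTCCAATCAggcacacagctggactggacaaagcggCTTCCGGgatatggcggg
ZNF91: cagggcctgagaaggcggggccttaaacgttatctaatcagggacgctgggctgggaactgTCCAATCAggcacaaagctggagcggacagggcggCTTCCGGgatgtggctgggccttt
ZNF100: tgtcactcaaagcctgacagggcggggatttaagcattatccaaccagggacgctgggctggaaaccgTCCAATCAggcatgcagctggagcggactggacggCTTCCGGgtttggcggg
ZNF85: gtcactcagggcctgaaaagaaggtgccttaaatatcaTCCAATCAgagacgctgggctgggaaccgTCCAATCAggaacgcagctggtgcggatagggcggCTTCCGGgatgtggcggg
ZNF430: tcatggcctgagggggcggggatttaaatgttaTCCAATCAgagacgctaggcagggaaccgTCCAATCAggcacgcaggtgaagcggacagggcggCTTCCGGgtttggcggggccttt
ZNF20: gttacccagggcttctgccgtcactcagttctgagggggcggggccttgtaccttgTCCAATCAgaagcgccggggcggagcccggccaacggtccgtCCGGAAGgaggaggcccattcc
ZNF177: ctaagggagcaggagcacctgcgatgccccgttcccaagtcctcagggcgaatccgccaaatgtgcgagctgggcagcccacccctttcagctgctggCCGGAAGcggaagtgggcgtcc
The windows lie at chr19:24087067-24087186 (plus strand) for ZNF254, chr19:23395472-23395591 (minus) for ZNF91, chr19:21767580-21767699 (minus) for ZNF100, chr19:20923131-20923250 (plus) for ZNF85, chr19:21020537-21020656 (plus) for ZNF430, chr19:12140351-12140470 (minus) for ZNF20 and chr19:9362893-9363012 (plus) for ZNF177.

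Both arrays carry limits that touch the results. In 46 of the 210 member probes (21.9%, against 6.73% of all table probes) the raw mimic intensity in the table was the product of the control's raw value and the authors' fold, to a relative tolerance of 1e-06. These probes are called recomputed here, and the table's mimic value for them is fixed by that fold. Differences here come from the deposited spot values instead. At ZNF586, named after its values were seen, 9 of 10 scanner spots kept the digit pattern of spots that were not recomputed. The mean over its spots gave a difference of -2.36. These 9 were the only such spots among the 64 of recomputed members. Spot values of the other recomputed members are therefore not known to be separate measurements. The recomputed members are the 46 that the table marks as down, and their differences ran from -4.42 to -1.61. Over the whole table all 1366 recomputed probes were at least 1.5-fold lower, so no higher probe was recomputed. Counts are given with and without them. Members that were not recomputed reached no lower than -1.72. Leaving out the recomputed probes thus removes the furthest lower values, so medians without them rise and lower counts fall by construction. Markers of cell type also differed between the arrays. Of the 12 epithelial markers listed, 8 were in the table, and 5 of them passed 1.5-fold on the higher side against 0 on the lower, with a summed intensity of 211986 in mimic cells and 30678 in control cells. Of the 12 mesenchymal markers, 8 were in the table, 1 higher and 7 lower, 6 of the lower ones recomputed, with sums of 4613 in mimic cells and 226151 in control cells. CDH1 (E-cadherin), a defining marker of an epithelial line such as HCT116, had an intensity of 11324 in mimic cells and 36.6 in control cells, where the lowest table probe was at 18.7. Of 5 blood markers, 4 were in the table, 1 higher and 1 lower. CDH1 and the mesenchymal sum on the control array, of which VIM alone gave 163211, went against the epithelial label. The keratins KRT18, KRT19 and KRT8 were bright there, at 22142, 6112 and 1430 in control cells. EPCAM had 608 in control cells, and KRT20, CDX1 and LGALS4 were dim on both arrays. The part of these marker differences in the results below was not tested. In bulk RNA, fewer cells of a type and less RNA per cell cannot be told apart.

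Chromosome 19 ZNF probes were mostly dimmer on the mimic array. Their median intensity was 226 in mimic cells and 428 in control cells, against 635 and 607 for all table probes. The median difference was -0.73 (quartiles -1.45 and -0.10, range -4.42 to 2.09), against -0.07 for all table probes. At 1.5-fold, 121 members (57.6%) were lower and 16 (7.62%) were higher, where 24.7% of all table probes were lower and 23.0% were higher. In the deposited normalized values, where the median of all table probes was 0.57, 70 members were lower and 48 higher, and the members' median was -0.135. At 2-fold on the scaled intensities, 81 were lower and 8 higher, with a background of 14.2% lower and 13.2% higher. Without the recomputed probes, 75 of 164 (45.7%) were at least 1.5-fold lower, where 19.3% of all such table probes were, and the median was -0.48. Counted by gene, with the probes of a gene averaged, 92 of 164 genes were lower, 12 were higher and the median was -0.70.

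The shift was smaller for ZNF genes on other chromosomes, and the rest of chromosome 19 lay above 0. The 268 ZNF probes elsewhere had a median of -0.13, which turned to 0.49 in the deposited normalized values, with 86 lower and 54 higher. The 970 other chromosome 19 probes had a median of 0.15, with 137 lower and 295 higher. Among the chromosomes with at least 10 ZNF probes, the median was lowest on chromosome 19, followed by chromosome 3 at -0.70 over 13 probes. It was highest on chromosome 10 at 0.50 over 21 probes. Of the chromosomes with fewer probes, 5 and 11 lay below chromosome 19, at -0.90 and -0.80 over 7 probes each. The others lay above it. A further 9 chromosome 19 probes carried ZFP, ZSCAN, ZIM or ZIK symbols, which name related zinc finger genes. All 9 were below 0, as were 53.5% of all table probes, and their median was -0.32. Of the 9, 1 (11.1%) was at least 1.5-fold lower, against 24.7% of all table probes.

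**Figure D1:**
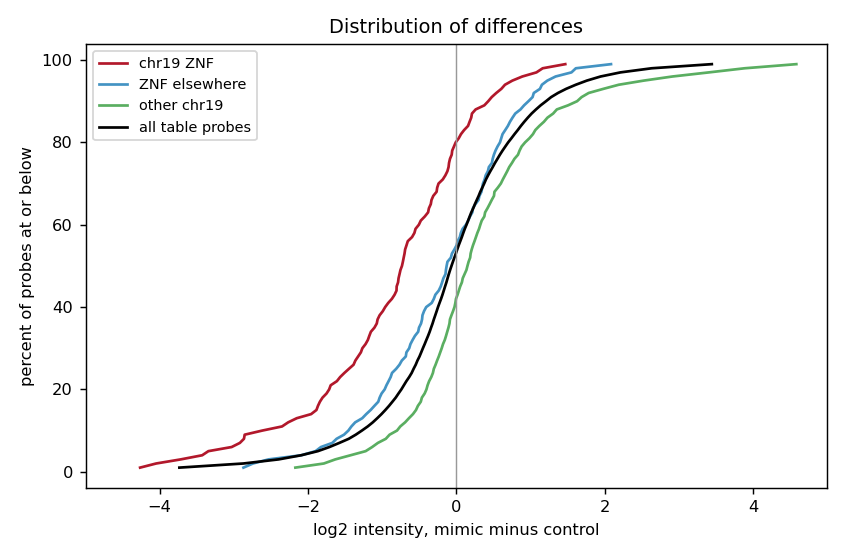
Cumulative distribution of the difference (x axis, log2 intensity, mimic minus control; y axis, percent of probes at or below it) for chromosome 19 ZNF probes, ZNF probes elsewhere, other chromosome 19 probes and all table probes. The curve of the chromosome 19 ZNF probes lies to the left of the other curves, with 80.0% of its probes below 0.

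Members were dim, and the difference varied with intensity. All table probes were split into 4 equal classes of mean intensity. In the dimmest class 69 members had a median of -0.78 and the other probes -0.20. In the second class, 70 members had a median of -0.82 and the others 0.04, and in the third class 56 members had -0.72 and the others 0.04. In the brightest class, 15 members had a median of -0.10 and the other probes -0.09. The brightest members were therefore close to the array's centre.

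By the mean of a gene's probes, ZNF526 was the brightest gene, at 20561 in mimic cells and 35993 in control cells, 1.75-fold lower. ZNF579 had 10770 in mimic cells and 8006 in control cells. ZNF525 had the brightest single probe, at 110328 in mimic cells and 124047 in control cells, and a dim recomputed probe at 112 and 418. The remaining genes of the brightest 5 were nearly level. ZNF418 had 4454 in mimic cells and 4656 in control cells. ZNF444, a SCAN-domain protein that regulates a scavenger receptor gene of endothelial cells, had 4252 in mimic cells and 4565 in control cells. Among these 5 genes, ZNF526 differed by more than 1.5-fold, though by -0.16 on the log2 scale in the deposited normalized values, and ZNF525 did so at its recomputed probe and not at its bright one.

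The largest lower values were all recomputed, as were all members that the table marks as down. ZNF550, at 227 in mimic cells and 4876 in control cells, was 21.5-fold lower. ZNF844 had 24.7 in mimic cells and 485 in control cells. ZNF223 had 50.9 in mimic cells and 980 in control cells. These genes and the next 5, ZNF470, ZNF155, ZNF615, ZNF20 and ZNF585B, were 8.56-fold to 21.5-fold lower. ZNF470 had 29.2 in mimic cells and 543 in control cells. ZNF155 had 30.9 in mimic cells and 431 in control cells. ZNF615 had 90.1 in mimic cells and 951 in control cells. For scale, the lowest table probe on the mimic array was at 14.0. ZNF20 had 26.8 in mimic cells and 260 in control cells. ZNF585B had 94.7 in mimic cells and 811 in control cells. ZNF20 has a second array probe, outside the table and not recomputed, which had 20.2 in mimic cells and 340 in control cells, 16.8-fold lower.

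Among members that were not recomputed, the furthest lower was a probe of ZNF625, with 21.8 in mimic cells and 71.6 in control cells, 3.29-fold lower, followed by ZNF836, with 36.4 and 109, and ZNF728, with 26.2 and 77.6. These 3, named after their values were seen, were dim on both arrays. ZNF567 followed, chosen likewise, and had 1060 in mimic cells and 3124 in control cells at 1 of its 2 probes, 2.95-fold lower. ZNF226, after it, had 1063 in mimic cells and 3040 in control cells at 1 of its 2 probes, 2.86-fold lower. ZNF567 and ZNF226 were above the median intensity of the table on both arrays at these probes.

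The 12 genes that were higher were spread over several clusters. ZNF177 was the furthest, at 448 in mimic cells and 106 in control cells, 4.25-fold higher. ZNF565 had 276 in mimic cells and 112 in control cells. ZNF77 averaged 527 in mimic cells and 216 in control cells, with both of its probes above 0. ZNF177, ZNF565 and the average of ZNF77 were below the median intensity of the table on both arrays. The brighter ZNF77 probe was above it on both, at 1485 in mimic cells and 698 in control cells, 2.13-fold higher. ZNF428 averaged 1937 in mimic cells and 884 in control cells, and ZNF607 had 2002 and 954. ZNF490, at 83.2 in mimic cells and 39.3 in control cells, was near the dim end of both arrays. ZNF581 had 544 in mimic cells and 291 in control cells, and ZNF57 had 683 and 377. None of these 8 genes had a recomputed probe, which follows from all such probes being on the lower side.

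Of 19 zinc finger genes listed for a described role, 10 were members, and the values of these 10 did not share a direction. ZNF274, which recruits SETDB1 to the 3′ ends of zinc finger genes themselves, had 394 in mimic cells and 1414 in control cells, 3.59-fold lower and recomputed. ZNF91, a repressor of SVA and LINE-1 retrotransposons, had 164 in mimic cells and 376 in control cells, 2.29-fold lower and not recomputed. ZNF175, known as an antiviral factor of HIV-infected macrophages, had 269 in mimic cells and 473 in control cells. ZNF85 had 550 in mimic cells and 909 in control cells. These 4 were the role genes at least 1.5-fold lower; in the deposited normalized values ZNF175, at -0.31, and ZNF85, at -0.19, were within 1.5-fold. ZNF180, with 778 in mimic cells and 1149 in control cells, stayed within 1.5-fold. ZNF224, a repressor of the aldolase A gene, had 91.5 in mimic cells and 120 in control cells. ZNF154, whose promoter is often methylated in tumours, had 136 in mimic cells and 114 in control cells. ZNF473, which acts in histone pre-mRNA processing, had 237 in mimic cells and 176 in control cells. ZNF580 had 3690 in mimic cells and 2664 in control cells. The differences of ZNF180, ZNF224, ZNF444 and, of the brightest genes, ZNF418 were above 0 in the authors' deposited normalized values, which lie 0.57 higher over all probes.

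Along the chromosome the members fell into 15 groups when a gap of over 1 Mb between neighbouring members started a new one, and 7 of these held at least 5 genes. All 7 medians were below 0, with the recomputed probes and without them, as were 6 of 7 in the deposited normalized values. The 188 members in these 7 clusters had a median of -0.78, with 114 lower and 11 higher, and the 22 members outside them had -0.08, with 7 lower and 5 higher. Positions below are those of the table; its genome build was not known from the sources used here.

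**Figure D2:**
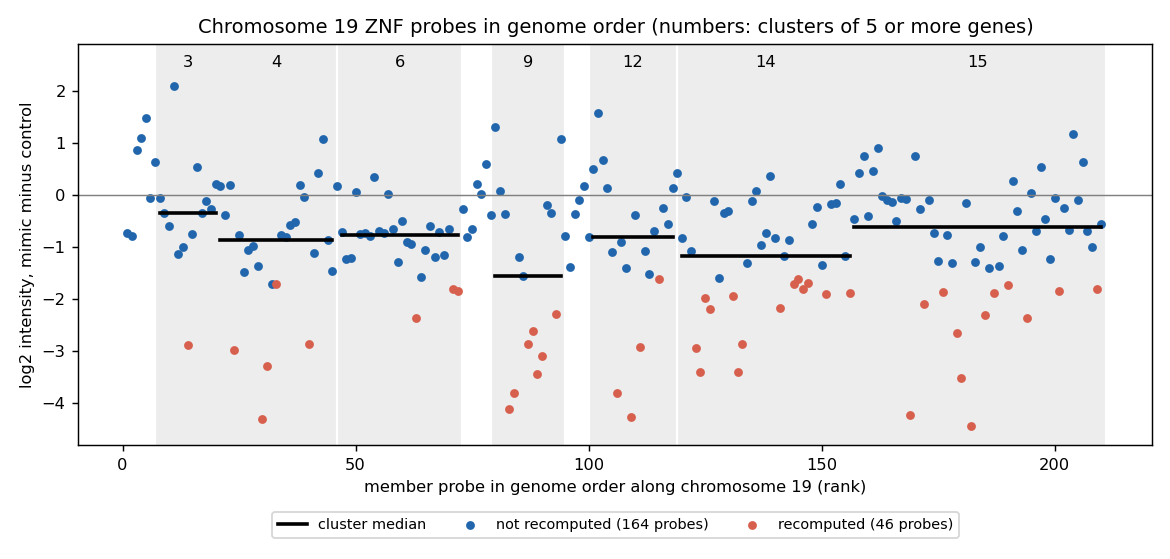
Difference of each of the 210 member probes (y axis, log2 intensity, mimic minus control) in genome order along chromosome 19 (x axis, rank), with recomputed probes in a second colour. Shaded bands are the 7 numbered clusters of at least 5 genes and black lines their medians, all below 0; points above 0 occur in every band.

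The cluster from ZNF101 to ZNF254 (cluster 6, chr19:19790730-24312487) was the most even. Of its 26 probes, 22 passed 1.5-fold on the lower side, 3 of them recomputed, and 0 passed it on the higher side. Its 19 genes had quartiles of -1.20 and -0.69, and 18 of them were below 0. The exception was ZNF253, with 252 in mimic cells and 243 in control cells, a difference of 0.05 that turned to just below 0 under cyclic loess and under normexp background correction. A second ZNF253 probe, outside the table, had 4.28 in mimic cells and 27.6 in control cells. ZNF99 was the furthest lower, at 39.9 in mimic cells and 204 in control cells, and recomputed.

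The cluster from ZNF175 to ZNF813 (cluster 14, chr19:52092551-53997458) had a median of -1.16 over 37 probes, with 25 lower and 0 higher. Of those probes 14 were recomputed, all of them lower, and the median of the others was -0.55. ZNF761 was its highest gene whose probes share a direction, at 227 in mimic cells and 198 in control cells. The cluster from ZNF565 to ZNF607 (cluster 9, chr19:36673459-38187848) had the lowest median, -1.56 over 15 probes, and also the widest quartiles of the 7, -2.80 and -0.06 over 11 genes. With its 7 recomputed probes left out, all of them lower, the median was -0.27. Its outermost members, ZNF565 and ZNF607, were among the genes higher on the mimic array.

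The cluster from ZNF627 to ZNF791 (cluster 4, chr19:11729303-12740240) had a median of -0.86, with 16 of 25 probes lower and 1 higher, ZNF490, whose difference of 1.08 was 0.33, within 1.5-fold, under normexp. The cluster from ZNF576 to ZNF296 (cluster 12, chr19:44103327-45575588) had a median of -0.80, with 10 of 18 lower and 2 higher, both of them probes of ZNF428. The cluster from ZNF628 to ZNF446 (cluster 15, chr19:55995696-58992591) was the largest, with 54 probes of 45 genes, a median of -0.61, 27 lower and 5 higher. The cluster from ZNF558 to ZNF812 (cluster 3, chr19:8920552-9801597) had the median nearest 0, -0.34 over 13 probes, and held both ZNF177 and ZNF426. ZNF426 had 172 in mimic cells and 1266 in control cells, 7.37-fold lower and recomputed. The small group of ZNF555, ZNF57 and ZNF77 (cluster 1, chr19:2853891-2934392) stood on the other side, with a median of 0.86 over 5 probes. In it both ZNF555 probes were lower and the 3 probes of ZNF57 and ZNF77 were higher.

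Other genes inside the 7 clusters shared the side of the ZNF members. The 101 other chromosome 19 probes between members had a median of -0.32, with 33 lower and 7 higher. The 869 other probes outside the clusters had a median of 0.20, with 104 lower and 288 higher. The probes inside were dimmer, with median intensities of 221 in mimic cells and 255 in control cells, against 842 and 516 outside. Among the 149 pairs of neighbouring member genes within a group, 71.8% lay on the same side of 0, against 64.8% of all 13366 pairs of members. The median gap between neighbours was 0.88, against 1.01 for all pairs.

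**Figure D3:**
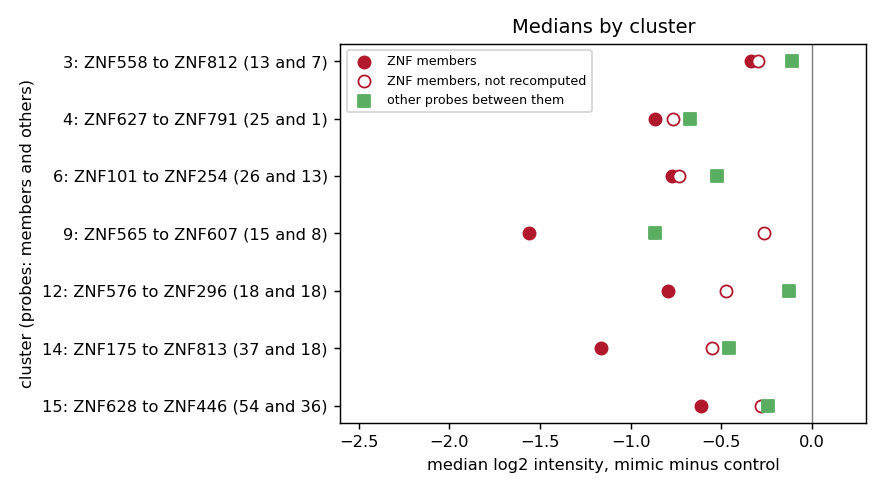
Median difference (x axis, log2 intensity, mimic minus control) in each of the 7 clusters (rows, with the number of member probes and of other probes), for ZNF members, for members that are not recomputed and for other probes between them. All points lie below 0, and leaving out recomputed probes moves cluster 9 the most, with a median of -1.56 over all its members and -0.27 without those probes. Recomputed probes are all on the lower side, so leaving them out moves a median up by construction.

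Promoters were matched in RefSeq for 141 of the member genes. TCCAATCA, a word picked after ranking the 8-letter words of these promoters, occurred on either strand in 22.7% of them, against 1.81% of all coding-gene promoters in the window from 250 bases before to 50 after the start. Upstream of the start it was in 14 of 14 promoters of cluster 6, in 15 of 19 of cluster 4 and in 3 of 3 of cluster 1, and in 0 of the promoters of every other group. The medians of those 3 groups were -0.77, -0.86 and 0.86, so promoters with the word lay on both sides of 0. Over all members the median was -0.76 for the 32 genes with it and -0.68 for the 109 without it.

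CCGGAAG was in 46.1% of member promoters and 14.2% of all coding-gene promoters. The median difference was -0.91 for the 65 member genes with it and -0.48 for the 76 without it. Both words stood upstream of 10 member genes, 9 of them in cluster 6 and the other ZNF20, which is 7.09% of member promoters against 0.265% of all coding-gene promoters. In 8 of these 9 the words were 27 bases apart, as can be seen in the 5 printed cluster 6 promoters, and in ZNF20 they were 34 bases apart. All 10 genes were at least 1.5-fold lower, with a median of -0.92 and differences from -3.28 to -0.69. The other 5 cluster 6 genes with a promoter had a median of -0.71. In cluster 6, which holds 9 of the 10 genes, 22 of all 26 probes were at least 1.5-fold lower whatever their promoter. Of the 10, 7 passed 1.5-fold under quantile normalization and under cyclic loess. In the deposited normalized values 3 passed it and 3 were above 0, the highest at 0.13. Among those printed and not yet described, ZNF254 averaged 229 in mimic cells and 589 in control cells over 4 probes, 2 of them recomputed. ZNF100 had 923 in mimic cells and 1717 in control cells, and ZNF430 averaged 41.9 and 67.4 over 2 probes. ZNF177, the gene furthest higher, holds CCGGAAG as well. TATAAA was rarer than elsewhere, in 2.13% of member promoters and 9.63% of all.

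Members were also split by the KRAB domain. A list of 21 member genes without a KRAB domain, written from background knowledge after values had been seen, had a median of 0.14, with 3 lower and 5 higher. The other 143 genes had a median of -0.76, with 89 lower and 7 higher, 38 of them with a recomputed probe. The genes without KRAB were brighter, with median intensities of 683 in mimic cells and 683 in control cells, against 225 and 466 for the others. ZNF428, ZNF581, ZNF579 and ZNF580, all above 0, are in the list without KRAB, as are ZNF526 and ZNF444, both below 0. The 3 lower genes of that list were ZNF134 (-1.64, with 1 recomputed probe), ZNF526 (-0.81) and ZNF121 (-0.76).

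The partners that KRAB proteins act through did not share the members' direction. All 25 listed genes were in the table, with a median of 0.28, 9 higher, 4 lower and 12 within 1.5-fold. Of all table probes, 23.0% were higher and 24.7% lower, with a median of -0.07. TRIM28, the corepressor itself, had 10785 in mimic cells and 5688 in control cells, 1.90-fold higher. KDM1A, a histone demethylase, had 1713 in mimic cells and 290 in control cells. DNMT3B, a de novo DNA methyltransferase, had 6334 in mimic cells and 1548 in control cells, and UHRF1, which guides maintenance methylation, had 2741 and 855. On the lower side, TASOR, a subunit of the HUSH silencing complex, had 413 in mimic cells and 2615 in control cells. DNMT3A, the other de novo methyltransferase, had 184 in mimic cells and 1047 in control cells. ATF7IP, a partner of SETDB1, had 1432 in mimic cells and 4979 in control cells. Each of these lower genes has at least 1 recomputed probe. The 9 higher genes have none, which follows from all such probes being on the lower side.

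Probes of the same gene mostly fell on the same side. Of 41 genes with several member probes, 31 had all of them below 0, 3 had all above 0 and 7 had probes on both sides. Among genes with 2 probes, 30 of 37 (81.1%) had both on 1 side, against 72.4% of the 2510 symbols with 2 probes in the whole table. As 80.0% of member probes and 53.5% of all table probes were below 0, these shares do not compare how well probes agree. For the 37 genes with 2 probes the median gap was 0.60, against 0.48 for those symbols. ZNF461 had the widest gap. Its 3 probes had differences of -4.10, -3.79 and -0.36; the first 2 are recomputed, and the third had 1734 in mimic cells and 2227 in control cells. For spots of 1 probe, 7 members, with 10 spots each on the array, had an SD of the difference over their spots of 0.03 to 0.17. Among them ZNF426 and ZNF586 are recomputed, and no mimic spot of ZNF426 kept the digit pattern of spots that were not recomputed. The lowest and highest SD belonged to members that were not recomputed. Spots of 1 array are technical repeats and say nothing about a second culture.

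**Figure D4:**
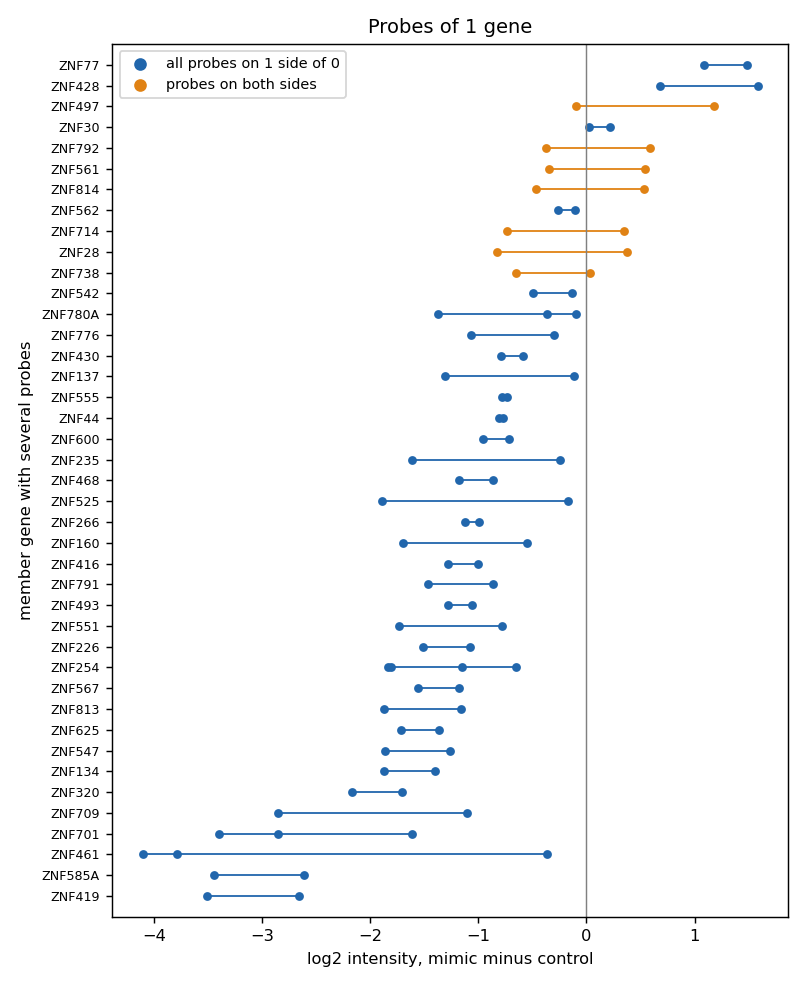
Difference of each probe (x axis, log2 intensity, mimic minus control) for the 41 member genes with several probes (rows, ordered by their mean), with a line from the lowest to the highest probe. In 34 genes all probes lie on 1 side of 0, and ZNF461 has the longest line.

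The table keeps only probes that the authors flagged as detected, so array probes outside it were looked up by accession. RefSeq placed 312 array probes on chromosome 19 ZNF genes, 231 genes in all, and 109 of these probes, for 90 genes, were outside the table. Mimic spots of member probes that were not recomputed were all 1.2 times a number of 7 significant digits (209 of 209 spots), which held for 9 of 64 spots of recomputed ones, and all 109 outside probes were on that pattern. The median intensity of the negative-control spots was 5.59 in mimic cells and 3.60 in control cells, before scaling. On 41 of the 109 probes both arrays were under 5 times that level. On 46 at least 1 array was at 10 times or more, and of these 40 (87.0%) passed 1.5-fold on the lower side and 4 on the higher. Over the whole array, 41.8% of the 2880 such probes outside the table were lower and 40.0% were higher. The median of the 46 was -4.57, against -0.08 over those 2880 probes. On 36 of the 46 the mimic array was under 5 times the negative controls, and on 1 the control array was. Those 36 entered through the control array alone, so a large lower value there follows from how they were picked. With mimic values held at no less than the lowest table intensity, 14.0, the median of the 46 was -3.10.

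On 8 of these probes the control array was at 100 times the negative-control level or more and the mimic array under 5 times, which held for 1.36% of all 13836 array probes outside the table. The opposite pattern was found for 0 of the chromosome 19 ZNF probes and for 0.954% of all. ZNF569 had 4.20 in mimic cells and 4091 in control cells, at least 292-fold lower against the lowest table intensity. ZNF529 had 4.63 in mimic cells and 3798 in control cells, at least 271-fold lower. ZNF260 had 4.48 in mimic cells and 3547 in control cells, at least 253-fold lower. These 3 genes, with ZNF345 and ZNF790, lie in cluster 9 by RefSeq gene order, where 11 of 12 bright outside probes were lower. ZNF260 and ZNF569 each have a second outside probe that was much dimmer on the control array, at 29.4 for ZNF260 and 57.8 for ZNF569, with 4.43 and 10.7 on the mimic array. ZNF71, ZNF257 and ZNF432, in clusters 15, 6 and 14, were the other 3. ZNF257 also has a probe in the table without a coordinate, at 962 in mimic cells and 1446 in control cells, so its probes differ widely in size of difference.

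Genes with a described role had 14 outside probes, of which 1 was above 0, a ZNF154 probe with 9.75 in mimic cells and 5.25 in control cells. On 5 of the 14, this one included, both arrays were under 5 times the negative controls, where the side of 0 says little. Of the 5 at 10 times or more on either array, 4 were at least 1.5-fold lower, against 41.8% of all such outside probes array-wide. Each of these 5 reached 10 times on the control array only. ZNF568, whose mouse counterpart represses a placental Igf2 transcript, had 5.93 in mimic cells and 386 in control cells at its brighter control probe, and 45.2 and 53.6 at another. ZNF331, an imprinted gene, had 7.87 in mimic cells and 357 in control cells. ZNF93, a repressor of LINE-1 elements, had 12.7 in mimic cells and 97.7 in control cells. Over all outside probes at 10 times the negative controls or more on either array, 4 were higher. ZNF329 had 285 in mimic cells and 26.1 in control cells, and ZNF575 had 141 and 26.7. ZNF577 had 47.9 in mimic cells and 9.99 in control cells, and ZNF114 had 171 and 41.6.

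**Figure D5:**
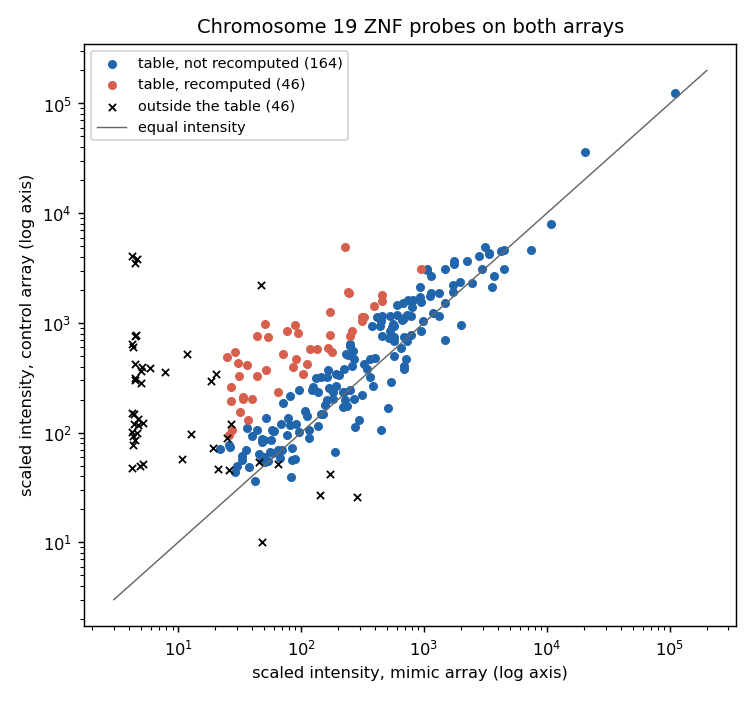
Scaled intensity of chromosome 19 ZNF probes on the mimic array (x axis, log) and on the control array (y axis, log), for table probes that are not recomputed, recomputed table probes and the 46 probes outside the table at 10 times the negative controls or more on either array. Most points lie above the line of equal intensity, and many outside probes stand at the left edge, where mimic values were near the negative controls.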

How the data were processed

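The authors deposited 1 linear intensity per spot for each array (Cy3; the submitters' processing notes name Agilent Feature Extraction 9.1), and a table of detected probes which per the file headers gives raw intensities, log2 normalized values and the ratio of mimic over control, a linear fold. The header names detection in 5 of 5 samples. How the authors normalized, the platform and the genome build were not stated in the sources used here. Spot log2 intensities were averaged per probe and each array's 75th percentile (1364 mimic, 894 control) was subtracted. Printed intensities were rescaled by the geometric mean of both percentiles. Alternatives used limma 3.58.1 in R 4.3.3 and the rest Python 3.11.15, checked on simulated data. The array number limits the precision, so no p-value or SE is given. Calls used 1.5-fold.

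All 210 probes matched RefSeq by Entrez identifier, each on chromosome 19, and 202 had the same symbol. Of 6 renamed genes, 4 are now annotated as pseudogenes; 5 probes lie on the strand opposite to their gene. Named genes, whose probes share a direction, were the 8 furthest each way, the furthest each way per cluster, the 5 brightest, members with a described role, and of the partners the 6 furthest and TRIM28; others are marked. Members and lists were chosen with earlier results of these data known. The planned grouping by protein feature was not made, as no protein sequences were used here.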

Additional observations from a re-analysis of the deposited data

Results flagged for a closer look

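Signal on 8 chromosome 19 ZNF probes lay outside the table of detected probes, with a high control-array intensity and a mimic-array intensity near the negative controls. The control-array intensities were 4091 for ZNF569, 3798 for ZNF529, 3547 for ZNF260, 771 for ZNF345, 755 for ZNF71, 638 for ZNF790, 606 for ZNF257 and 519 for ZNF432. The mimic-array intensities of the same probes ran from 4.20 for ZNF569 to 11.8 for ZNF432, below the lowest table intensity of 14.0. With 1 array per condition none of these was measured again.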

How the results depend on the processing

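No paired analysis was possible because each condition has 1 array. The members' median of -0.73 was -0.135 in the deposited normalized values, -0.64 with a constant of 32 added and -0.48 without recomputed probes; relative to all probes it was -0.48 to -0.74 under every setting tried. The 121 lower and 16 higher probes were 70 and 48 in the deposited values, where the median of all probes was 0.57, and with 0.6 taken off the mimic values they were 118 and 17. Fewer probes by construction gave 39 lower and 4 higher above the median intensity, 75 lower without recomputed probes and 8 higher at 2-fold. Accession-matched probes without a detection filter gave 183 lower of 312. The median of ZNF probes elsewhere turned to 0.49 in the deposited values and was -0.028 without recomputed probes. That of other chromosome 19 probes was 0.052 under normexp and 0.77 in the deposited values, and that of the KRAB partners 0.92 in the deposited values. Of 41 named genes, 4 changed sign in the deposited values, to 0.01 for ZNF180, 0.23 for ZNF224, 0.61 for ZNF418 and 0.58 for ZNF444. ZNF418 also turned to 0.016 under quantile normalization, and ZNF253 to -0.0029 under cyclic loess and -0.033 under normexp. Calls of named genes at 1.5-fold that ended were ZNF490 under normexp, at 0.33, and ZNF175, ZNF85, ZNF525 and ZNF526 in the deposited values, at -0.31, -0.19, -0.42 and -0.16. Beyond the shift of all probes and the probe numbers, the cause was not tested. All 7 clusters kept medians below 0 except 1 in the deposited values. The planned run of unfiltered scanner probes by symbol and position was not made, since the scanner files were matched by accession instead. Intensities near 14.0 limit what a large fold can show.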
